A study of Mus musculus with 12 samples.

Results

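The genes described here are 9 genes of vitamin A (retinoid) handling, *Stra6*, *Crabp1*, *Crabp2*, *Dhrs3*, *Aldh1a1*, *Aldh1a2*, *Aldh1a3*, *Rarb* and *Cyp26b1*, followed across cultures of mouse pancreatic stellate cells (PSCs). They were taken by symbol from a table of 39179 genes, and all 9 were found in it. The list was drawn up with the levels of these genes in these libraries already known, so their levels and their differences between cultures are given as descriptions, with no p for any of them, and calls from the fit over all genes are only counted, beside the share of all genes called. The PSCs, of strain C57BL/6 by their label, were 1 clone of a line immortalised with SV40, so all libraries came from the same clonal line and no culture stands for a range of animals. Kept in culture for a limited number of passages and labelled with mCherry, they were grown for 72 h alone (mono-PSC), with pancreatic cancer cells (PCCs) that express EGFP (2W-PSC, the 2-way co-culture), or with PCCs and with macrophages (MØs) that express TagBFP (3W-PSC, the 3-way co-culture). The PCCs were of 1 mouse line, whose alleles include p48-Cre, p53 fl/+ and ROSA26-LSL-rtTA-IRES-GFP. RAW264.7, a mouse line, served as MØs, so each partner too was 1 line and not a range of tumours or animals. All cultures were held in a minimal medium with little, dialysed serum and were seeded with the same total number of cells. Cells positive for mCherry and negative for EGFP and TagBFP were sorted out. Their RNA was sequenced from the 3′ end, 4 libraries per culture and 12 in all. The question of the design was how PCCs, and MØs added to them, change the PSCs.

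Vitamin A circulates as retinol, is taken into cells and, in resting stellate cells, is stored as retinyl ester in lipid droplets, a store that the cells lose on activation in culture or in tumours. Retinol is oxidised reversibly to retinal and then irreversibly to retinoic acid, which binds nuclear receptors (RARs, paired with RXRs) at repeated DNA half-sites and switches on target genes. Several proteins of the pathway, among them *Rarb*, *Dhrs3*, *Stra6*, *Cyp26a1* and *Cyp26b1*, are themselves known as targets of retinoic acid in other cells and limit or sustain its level.

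Promoter sequence was looked up because receptors of retinoic acid bind DNA at known motifs and several of these genes were high in the same cultures. RefSeq promoters on GRCm38.p6, each reaching from 250 bases before a start site to 50 after it, were at hand for 7 of the 9 genes, all but *Crabp2* and *Aldh1a3*, and for *Cyp26a1*, the other well-known enzyme of retinoic acid degradation. The half-sites searched on both strands were AGGTCA together with its close variants AGTTCA as well as GGGTCA as well as GGTTCA, of 6 bases each, and a DR5 was any pair of them on the same strand with 5 bases between. A DR5, which always contains a pair of half-sites, was in 0.0974% of the 32851 promoter windows of the reference, a pair spaced by 1 base (DR1) in 0.222%, a pair spaced by 2 bases (DR2) in 0.268%, and a single half-site in 43.7%. The window of *Rarb* and that of *Cyp26a1* each held 1 DR5, and no DR1, DR2 or DR5 was found in those of the other 6 genes. The 2 elements are shown with a few bases on each side, 30 bases in all, in the direction of the gene, with the DR5 in capitals. That of *Rarb* is at chr14:16575506-16575535 on the minus strand, from base -59 to base -30 counted from the start site, within an exon that GENCODE gives to other transcripts of this gene. That of *Cyp26a1* is at chr19:37697770-37697799 on the plus strand, from base -38 to base -9, and its half-sites read on the opposite strand.
Rarb: gggaagGGTTCACCGAAAGTTCActcgcat
Cyp26a1: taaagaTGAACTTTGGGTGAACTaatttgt

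The promoters of *Dhrs3* and *Stra6* are shown because these genes had their highest levels in 2W-PSC, and that of *Cyp26b1* because its highest level was in 3W-PSC. The stretches of *Dhrs3* (chr4:144892577-144892826, plus strand) and *Stra6* (chr9:58128838-58129087, plus strand) end at the base before the RefSeq start site used. For *Stra6* this is the first of 4 start sites and one that lies inside the gene as GENCODE gives it. The *Cyp26b1* stretch, at chr6:84593909-84594060 on the minus strand, ends at the base before the gene's first base in GENCODE. Its last base is at -99 from the RefSeq start site. Capitals in the *Cyp26b1* stretch mark the TATA motif (TATAAA), at -139 to -134 from that start site and found in 8.32% of all windows. Neither of the other 2 stretches holds it or a half-site.
Dhrs3: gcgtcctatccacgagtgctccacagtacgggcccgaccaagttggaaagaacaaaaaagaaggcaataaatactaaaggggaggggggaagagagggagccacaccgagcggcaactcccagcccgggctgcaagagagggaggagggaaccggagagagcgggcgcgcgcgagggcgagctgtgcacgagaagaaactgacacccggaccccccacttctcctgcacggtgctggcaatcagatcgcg
Stra6: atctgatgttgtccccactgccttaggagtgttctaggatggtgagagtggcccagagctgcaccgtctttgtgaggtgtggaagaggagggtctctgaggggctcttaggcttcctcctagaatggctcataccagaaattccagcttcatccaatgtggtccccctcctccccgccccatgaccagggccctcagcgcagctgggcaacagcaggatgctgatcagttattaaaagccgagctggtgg
Cyp26b1: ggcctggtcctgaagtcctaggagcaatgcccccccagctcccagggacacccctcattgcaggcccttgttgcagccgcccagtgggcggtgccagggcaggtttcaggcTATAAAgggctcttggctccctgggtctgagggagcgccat

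The map of motifs by distance from the start site sets these windows side by side. *Aldh1a1* had 1 half-site, before its second start site, and *Stra6* had 1 shortly after one of its start sites. A match describes letters in a window of 300 bases and no binding was measured.

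**Figure D1:**
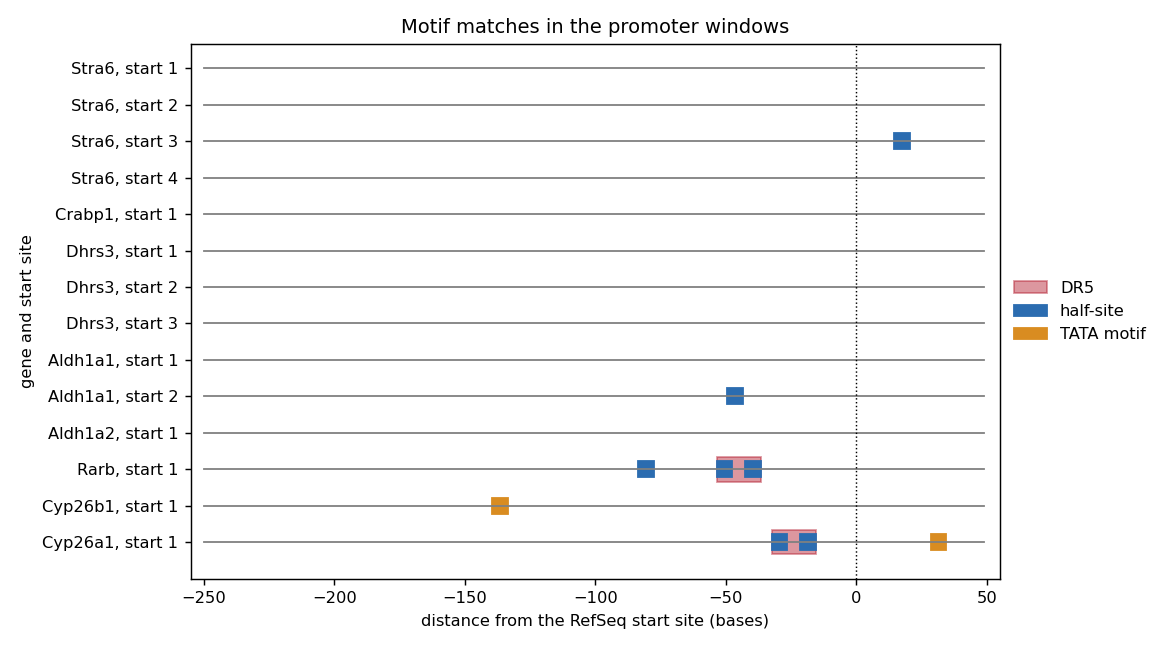
Motif matches in the promoter windows of 7 retinoid genes and of Cyp26a1, 1 line per RefSeq start site, with the distance from the start site in bases on the horizontal axis. Blue boxes are half-sites, red boxes are DR5 pairs and orange boxes are TATA motifs, and the only DR5 pairs lie at -53 to -37 in Rarb and at -32 to -16 in Cyp26a1.

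The libraries held 4561817 to 8093368 counts. Levels are CPM, counts per 1000000 counts of a library whose size was adjusted by TMM, and because a 3′ library gives about 1 fragment per transcript, CPM can be compared between genes without a correction for length. The library of 2W-PSC replicate 2 stood apart from the others, with a Spearman correlation of 0.858 to 0.920 with the other 2W-PSC libraries across genes, against 0.948 to 0.987 for the other pairs within a culture. Markers fitted fibroblast-like cells more than resting stellate cells: *Vim* and *Col1a1* reached 11620 and 21750 counts in a library, whereas *Gfap* and *Lrat*, the enzyme that makes retinyl esters, had no count in any library and *Des* had at most 25. Not every fibroblast marker was high: *Dcn* reached 1932 counts, but *Lum* had at most 7 in any library. Summed over 10 epithelial markers, levels were 0.481 to 2.44 CPM in mono-PSC, 75.7 to 148 CPM in 2W-PSC and 52.5 to 91.0 CPM in 3W-PSC. By gene, *Krt18*, *Cdh1*, *Krt7* and *Krt19* reached 331, 214, 195 and 173 counts in a 2W-PSC library, against 1, 5, 3 and 7 in mono-PSC. *Epcam* had no more than 3 counts in a library and *Cldn4* had 0. Summed over 10 macrophage markers, levels were 1.92 to 7.94 CPM, 3.23 to 11.6 CPM and 11.3 to 47.9 CPM in the same order of cultures, highest in 3W-PSC replicate 4. *Lyz2* and *Laptm5* reached 107 and 75 counts in a 3W-PSC library, against 30 and 0 in mono-PSC, and *Adgre1* was at 0. In bulk RNA, fewer cells of a type and less RNA per cell cannot be told apart.

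**Figure D2:**
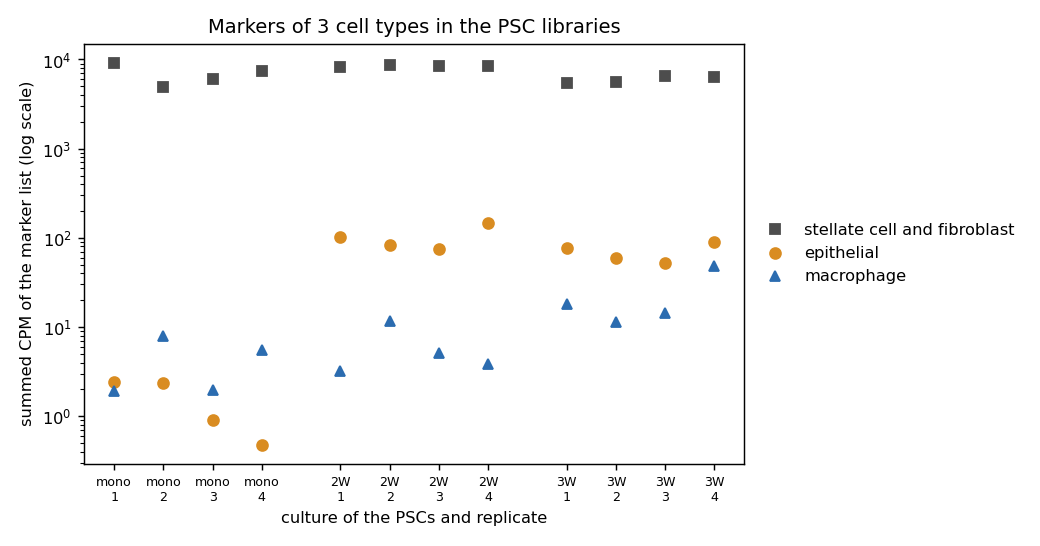
Summed CPM (vertical axis, log scale) of 12 stellate cell and fibroblast markers (squares), 10 epithelial markers (circles) and 10 macrophage markers (triangles) in each of the 12 libraries. The fibroblast sum lay between 4920 and 9121 CPM throughout, while the epithelial sum was above 50 CPM in every co-culture library and below 3 CPM in every mono-PSC library.

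*Dhrs3* was about 11-fold higher in PSCs grown with PCCs than in PSCs alone and at an intermediate level where MØs were present too. *Rarb* was higher in both co-cultures, *Stra6* only just countable and highest in 2W-PSC, and *Cyp26b1* was highest in 3W-PSC. *Crabp1* and *Aldh1a1* were highest in PSCs alone. *Crabp2*, *Aldh1a2* and *Aldh1a3* stayed below 3 CPM in every library.

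*Stra6*, on chromosome 9 (58063788 to 58153996, plus strand), encodes the membrane receptor through which cells take retinol from its carrier in blood. Its counts were 0, 2, 0 and 7 in mono-PSC replicates 1 to 4, 16, 13, 20 and 7 in 2W-PSC, and 1, 0, 1 and 3 in 3W-PSC. The 2W-PSC libraries thus held the most, although replicate 4 of 2W-PSC and replicate 4 of mono-PSC had the same count. The mean level was 0.310 ± 0.401 CPM in mono-PSC, 2.44 ± 0.983 CPM in 2W-PSC and 0.163 ± 0.164 CPM in 3W-PSC (SD, n = 4). Over the summed counts of a culture, the level in 2W-PSC was 2.36 CPM with an exact 95% Poisson interval of 1.78 to 3.06, which covers counting error only, against 0.365 CPM (0.167 to 0.694) in mono-PSC and 0.158 CPM (0.0513 to 0.369) in 3W-PSC. In CPM, no 2W-PSC library overlapped a library of either other culture, while mono-PSC and 3W-PSC overlapped each other. Too few counts were present for *Stra6* to be kept in the fits of the comparisons, so no fold change is given.

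*Crabp1*, on chromosome 9 (54764748 to 54773110, plus strand), encodes a protein that binds retinoic acid in the cytoplasm and is known for carrying it to its degradation. It was the most abundant of the 9 genes in every library of mono-PSC and 3W-PSC, and its mean level ranked 571st among the 15776 genes with a count in mono-PSC. Mono-PSC replicates 1 to 4 had 176, 271, 319 and 236 CPM, 2W-PSC had 93.6, 259, 79.8 and 88.1 CPM, and 3W-PSC had 99.3, 85.0, 124 and 90.0 CPM. All 2W-PSC libraries but replicate 2 lay at or below 93.6 CPM, below every mono-PSC library, whereas replicate 2, the library that stands apart, lay among the mono-PSC values. Means were 250.5 ± 60.2 CPM in mono-PSC, 130.2 ± 86.2 CPM in 2W-PSC and 99.6 ± 17.3 CPM in 3W-PSC (SD, n = 4), and 87.2 ± 6.94 CPM in 2W-PSC without replicate 2 (n = 3). The log2 fold change of 2W-PSC over mono-PSC was -0.92 ± 0.36 (SE) with all libraries and -1.51 without that library. For 3W-PSC over 2W-PSC it was -0.39 ± 0.35 and turned to 0.19 without it, so the order of the 2 co-cultures was not settled. For 3W-PSC over mono-PSC, where that library plays no part, it was -1.33 ± 0.18 and the libraries did not overlap.

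*Crabp2*, on chromosome 3 (87948666 to 87953376, plus strand), encodes the related protein that hands retinoic acid to its nuclear receptors. It was hardly present: 2, 0, 0 and 0 counts in mono-PSC, 7, 0, 0 and 2 in 2W-PSC, and 2, 1, 6 and 0 in 3W-PSC. In every library at least 98.96% of the summed CPM of the pair came from *Crabp1*. At this depth no difference of *Crabp2* between cultures was detectable.

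*Dhrs3*, on chromosome 4 (144892827 to 144928209, plus strand), encodes a reductase that turns retinal back into retinol and so takes substrate away from the synthesis of retinoic acid. Its level was 10.1, 15.7, 10.8 and 8.18 CPM in mono-PSC replicates 1 to 4, 106, 157, 122 and 116 CPM in 2W-PSC, and 15.8, 19.9, 40.4 and 41.6 CPM in 3W-PSC. The 3 cultures were ordered without overlap, 2W-PSC above 3W-PSC above mono-PSC, although the lowest 3W-PSC library (15.84 CPM) was close to the highest mono-PSC library (15.68 CPM). Means were 11.2 ± 3.19, 125 ± 22.1 and 29.4 ± 13.5 CPM in that order of cultures, mono-PSC, 2W-PSC and 3W-PSC (SD, n = 4). The difference of 2W-PSC over mono-PSC was 3.51 ± 0.25 on the log2 scale, an 11.4-fold higher level, and was 35th in size among the 5900 tested genes with a higher level in 2W-PSC. *Dhrs3* moved in rank among the genes with a count from 7887th of 15776 in mono-PSC to 1352nd of 16096 in 2W-PSC. In 3W-PSC it was 4.25-fold lower than in 2W-PSC (log2 fold change -2.09 ± 0.31) and 2.64-fold higher than in mono-PSC (1.40 ± 0.31). Leaving out 2W-PSC replicate 2, which had the highest value, gave 3.38 for 2W-PSC over mono-PSC and -1.97 for 3W-PSC over 2W-PSC. The 2W-PSC libraries with the highest *Dhrs3* also belonged to the culture with the highest epithelial marker sums given above, and the part of those cells in the level was not tested. The epithelial sums of 2W-PSC replicates 1 to 4 were 103, 82.6, 75.7 and 148 CPM, beside *Dhrs3* at 106, 157, 122 and 116 CPM. No relation between the 2 was tested.

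*Aldh1a1*, *Aldh1a2* and *Aldh1a3* encode the dehydrogenases that oxidise retinal to retinoic acid. *Aldh1a1*, on chromosome 19 (20492715 to 20643465, plus strand), had 12.4, 9.33, 10.5 and 5.30 CPM in mono-PSC replicates 1 to 4, 2.95, 2.46, 3.66 and 3.04 CPM in 2W-PSC, and 0, 0, 2 and 4 counts in 3W-PSC, the last being 0.255 and 0.520 CPM. The cultures were again ordered without overlap, here with mono-PSC highest and 3W-PSC lowest. Means were 9.36 ± 2.99 CPM in mono-PSC, 3.03 ± 0.492 CPM in 2W-PSC and 0.194 ± 0.248 CPM in 3W-PSC (SD, n = 4). The 2W-PSC level was 3.01-fold lower than that of mono-PSC (log2 fold change -1.59 ± 0.38). The 3W-PSC level, which rests on 6 counts in all, gave log2 fold changes of -3.88 ± 0.76 against 2W-PSC and -5.49 ± 0.64 against mono-PSC, the 6th and the 4th in size among the tested genes with a lower level in 3W-PSC. Of the 75-base windows in the last 500 bases of its transcripts, 1.13% also occur in *Aldh1a7*, its neighbour and close relative, whose own levels are given below.

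*Aldh1a2*, on chromosome 9 (71215789 to 71296243, plus strand), is the form best known for synthesis of retinoic acid in embryonic mesenchyme. It had no count in 6 of the 8 libraries of mono-PSC and 2W-PSC and 2 counts in each of the other two, and 2, 5, 3 and 0 counts in 3W-PSC. *Aldh1a3*, on chromosome 7 (66390890 to 66427517, minus strand), had 0, 9, 7 and 0 counts in mono-PSC, 7, 0, 2 and 18 in 2W-PSC, and 0, 4, 10 and 0 in 3W-PSC. Libraries of a culture differed from each other as much as cultures did for both genes. A count of 0 here allows a level of up to 3 counts, which is 0.349 to 0.738 CPM depending on the library. Summed over the 3 dehydrogenases, the level was 10.2 ± 3.14 CPM in mono-PSC, 4.15 ± 1.56 CPM in 2W-PSC and 0.936 ± 0.727 CPM in 3W-PSC (SD, n = 4), and *Aldh1a1* supplied 92.2% ± 7.07 of it in mono-PSC.

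*Rarb*, on chromosome 14 (16430839 to 16819156, minus strand), encodes retinoic acid receptor beta, the receptor whose own promoter carries the DR5 printed above. Its level was 3.83, 0, 1.44 and 0.842 CPM in mono-PSC replicates 1 to 4, 11.5, 8.85, 16.1 and 14.9 CPM in 2W-PSC, and 8.38, 9.54, 11.5 and 7.80 CPM in 3W-PSC. Every co-culture library was above every mono-PSC library, and the co-cultures overlapped each other. Means were 1.53 ± 1.65 CPM in mono-PSC, 12.8 ± 3.27 CPM in 2W-PSC and 9.30 ± 1.62 CPM in 3W-PSC (SD, n = 4). The log2 fold change over mono-PSC was 3.08 ± 0.66 for 2W-PSC and 2.59 ± 0.56 for 3W-PSC, both resting on 37 counts in mono-PSC in all, and that of 3W-PSC over 2W-PSC was -0.47 ± 0.26. *Rarb* and *Top2b*, which runs on the opposite strand, share 1793 exonic bases at chr14:16430839-16435258, at the 3′ end that such libraries read, and the strand setting of the counting is not given in the sources used here. *Top2b* was at 126 ± 10.5, 111 ± 8.83 and 117 ± 14.0 CPM in mono-PSC, 2W-PSC and 3W-PSC (SD, n = 4). The part of its reads in the *Rarb* level was not tested, nor was any loss of *Rarb* reads that lie in the shared bases. The epithelial marker sums were high in the same co-culture libraries as *Rarb*, and their part was not tested.

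*Cyp26b1*, on chromosome 6 (84571414 to 84593908, minus strand), encodes a cytochrome P450 that breaks down retinoic acid. It had 0.174, 1.39, 0 and 0 CPM in mono-PSC replicates 1 to 4, 0.702, 6.15, 1.59 and 0.320 CPM in 2W-PSC, and 11.8, 10.7, 6.24 and 10.1 CPM in 3W-PSC. Every 3W-PSC library was above every other library, but only just so for replicate 3 of 3W-PSC (6.24 CPM) against replicate 2 of 2W-PSC (6.15 CPM). Means were 0.391 ± 0.671 CPM in mono-PSC, 2.19 ± 2.69 CPM in 2W-PSC and 9.73 ± 2.43 CPM in 3W-PSC (SD, n = 4), and 0.871 ± 0.652 CPM in 2W-PSC without replicate 2 (n = 3). The log2 fold change of 3W-PSC over 2W-PSC was 2.26 ± 0.67 with all libraries and 3.46 without that library. Over mono-PSC it was 4.77 ± 0.68, against only 8 counts in the mono-PSC libraries together. The macrophage marker sums were also highest in 3W-PSC, and their part was not tested. The macrophage sums of 3W-PSC replicates 1 to 4 were 18.1, 11.3, 14.3 and 47.9 CPM, beside *Cyp26b1* at 11.8, 10.7, 6.24 and 10.1 CPM. No relation between the 2 was tested.

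**Figure D3:**
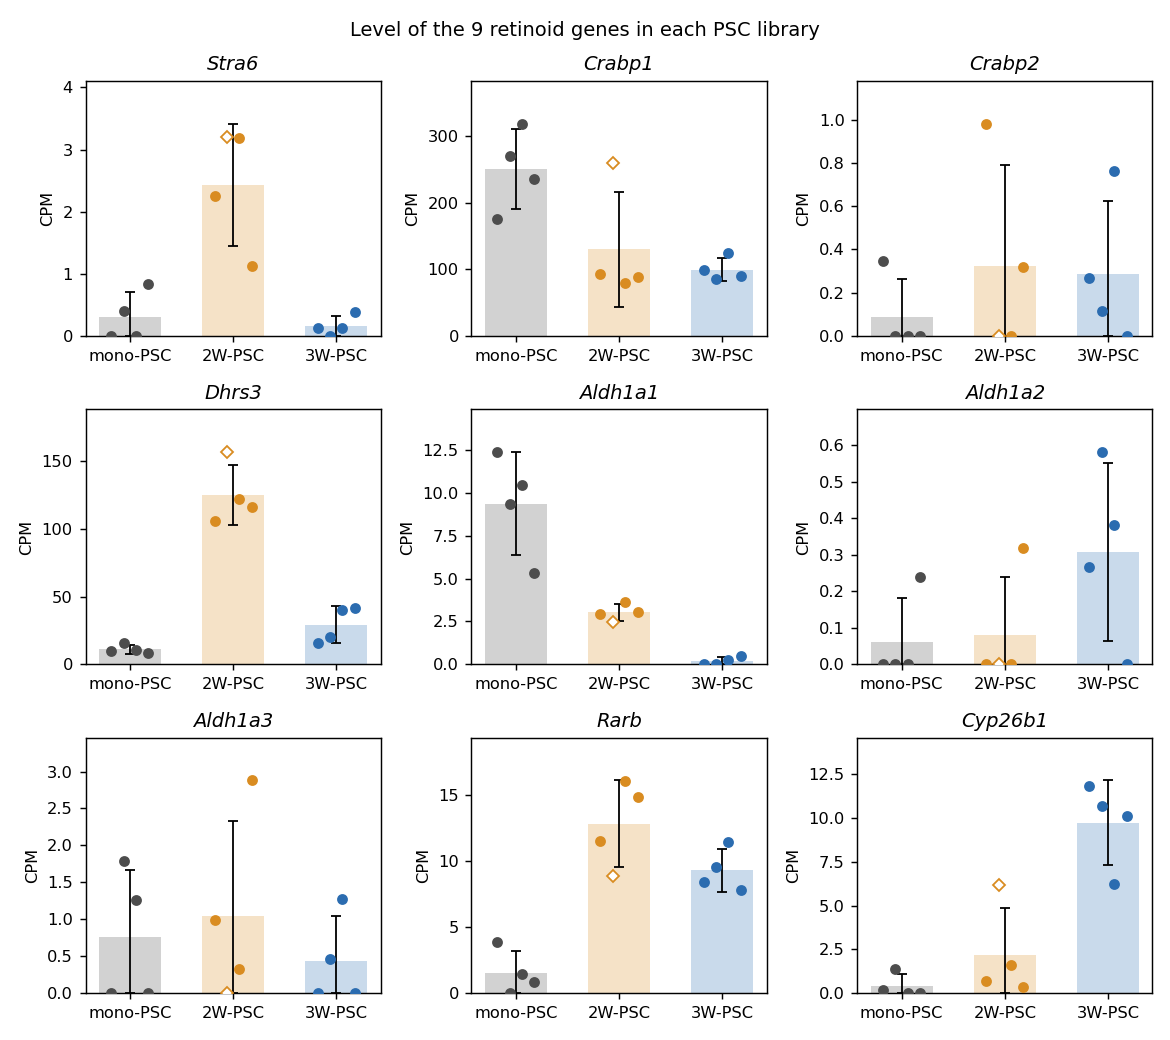
CPM (vertical axis, from 0, a separate scale for each gene) of the 9 retinoid genes in mono-PSC, 2W-PSC and 3W-PSC. Points are single libraries, bars are means and error bars are SD over 4 libraries, drawn down to no lower than 0, and the open diamond is 2W-PSC replicate 2. Dhrs3 is highest in all 4 libraries of 2W-PSC (106 to 157 CPM), Aldh1a1 in those of mono-PSC and Cyp26b1 in those of 3W-PSC.

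Set side by side, the 9 genes summed to 274 ± 60.6 CPM in mono-PSC, 277 ± 106 CPM in 2W-PSC and 149 ± 25.7 CPM in 3W-PSC (SD, n = 4). The 2W-PSC sum was 436.5 CPM in replicate 2, the library that stands apart, and 218.8 to 226.8 CPM in the other 3 libraries, within the 203 to 343 CPM of mono-PSC. In mono-PSC nearly all of this sum was *Crabp1*, with 91.0% ± 3.17, and *Dhrs3* made up 4.16% ± 1.10. In 2W-PSC *Dhrs3* made up 47.3% ± 7.91 and *Crabp1* 44.1% ± 10.7, and *Dhrs3* exceeded *Crabp1* in every library but replicate 2. In 3W-PSC *Crabp1* again made up most, 66.8% ± 5.39, followed by *Dhrs3* with 19.2% ± 7.0, *Cyp26b1* with 6.82% ± 2.46 and *Rarb* with 6.28% ± 0.973. The share of *Dhrs3* did not overlap between any of the 3 cultures.

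**Figure D4:**
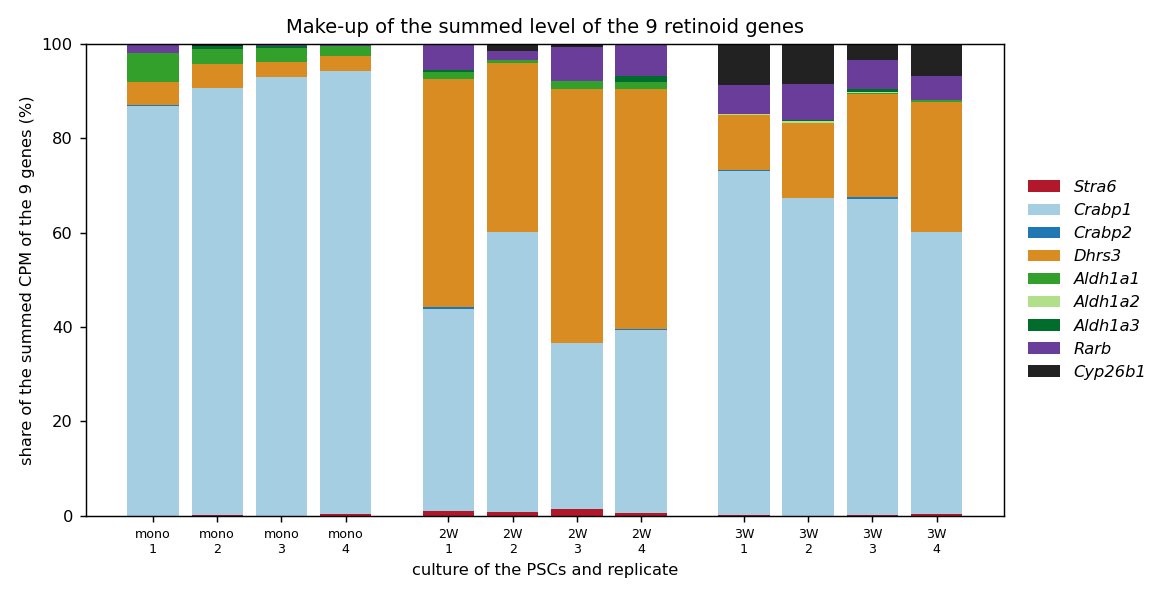
Share of each of the 9 retinoid genes in their summed CPM (vertical axis, percent) in each of the 12 libraries, grouped by culture. Crabp1 (light blue) takes 86.8% to 93.9% of the sum in mono-PSC, and Dhrs3 (orange) takes 35.9% to 53.8% in 2W-PSC.

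Because the genes were chosen with these comparisons known, their calls are set beside those of all genes and nothing is read from them. The 3 comparisons share libraries and are not independent of each other. For 2W-PSC against mono-PSC, 4 of the 9 genes had counts enough to be kept by the filter, and 1 of them, *Dhrs3*, had an adjusted p under 0.05 in edgeR's quasi-likelihood test, where 0.991% of the 11199 genes tested did. Of these 4, *Dhrs3*, *Aldh1a1* and *Rarb* did not overlap between the cultures, as did 5.75% of all genes. For 3W-PSC against 2W-PSC, 2 of 5 genes kept, *Dhrs3* and *Aldh1a1*, both lower, passed that threshold, as did 10.7% of 11513 genes, and 3 of 5 did not overlap, as did 21.3% of all genes. For 3W-PSC against mono-PSC, all 5 genes kept passed it, *Dhrs3*, *Rarb* and *Cyp26b1* higher and *Crabp1* and *Aldh1a1* lower, as did 26.4% of 11551 genes. The 4 or 5 genes kept exclude those with too few counts in both cultures of a comparison, and they do not stand for all 9. Against mono-PSC, *Rarb* and *Cyp26b1* were kept through the co-culture in which they were high. In the comparisons of 3W-PSC, *Aldh1a1* was kept through the other culture. Each of these 3 genes had 0 counts in at least 1 library of the lower culture, so being kept and being called were not independent.

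The rest of the pathway was followed with a list of 67 further genes of uptake, storage, oxidation, reduction, degradation, binding, nuclear receptors, their cofactors and known targets, of which 66 were in the table. Of these, 14 had no count in any library and 23 had fewer than 10 counts in every library, among them *Lrat*, *Cyp26c1* and *Rxrg* at 0. In the same test, with p-values adjusted over all genes by the Benjamini-Hochberg method, 2 of 39 pathway genes tested changed between 2W-PSC and mono-PSC, 1 higher and 1 lower. Between 3W-PSC and 2W-PSC 5 of 39 changed, 2 higher and 3 lower, and between 3W-PSC and mono-PSC 15 of 40 changed, 8 higher and 7 lower. These shares of 5.13%, 12.8% and 37.5% stand beside 0.991%, 10.7% and 26.4% of all genes, and since this list too was chosen with earlier results known, nothing is read from them. The median log2 fold change of the pathway genes was 0.10, -0.11 and 0.10 in the 3 comparisons, against 0.02, 0.00 and 0.01 for all genes. Without 2W-PSC replicate 2, 4 of 40 changed between 2W-PSC and mono-PSC and 10 of 39 between 3W-PSC and 2W-PSC.

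Among genes of uptake and transport, *Rbp4*, the carrier that brings retinol to STRA6, rose in both co-cultures. It had 4 counts in the 4 mono-PSC libraries together, all in replicate 1 (0.697 CPM), and 7.0 ± 3.0 CPM in 2W-PSC and 5.09 ± 1.85 CPM in 3W-PSC (SD, n = 4), without overlap. Its log2 fold change over mono-PSC was 5.26 ± 0.89 in 2W-PSC (adjusted p = 0.0115) and 4.80 ± 0.78 in 3W-PSC (adjusted p = 0.00022), values that depend on those 4 counts. For 2W-PSC, leaving out mono-PSC replicate 3 or 4 or 2W-PSC replicate 4 moved the adjusted p to 0.0537, 0.0535 and 0.0581. The epithelial marker sums were high in the same libraries and their part was not tested. *Lrp1*, a receptor that takes up lipoproteins with the retinyl esters they carry, had 99.7 ± 53.3, 144 ± 16.2 and 236 ± 57.1 CPM in mono-PSC, 2W-PSC and 3W-PSC and rose in 3W-PSC. It passed the test for 3W-PSC over 2W-PSC (log2 fold change 0.71 ± 0.20, adjusted p = 0.0411) and over mono-PSC (1.23 ± 0.30, adjusted p = 0.00538), but not for 2W-PSC over mono-PSC (0.54 ± 0.33, adjusted p = 0.887). The first of these was lost without 2W-PSC replicate 1, 3 or 4 or 3W-PSC replicate 2, 3 or 4, with adjusted p from 0.0588 to 0.117, and in a fit of all 12 libraries, with 0.148.

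In storage and release of retinol, *Lpl*, the lipoprotein lipase that also releases retinol from retinyl esters, fell from 312 ± 22.5 CPM in mono-PSC to 145 ± 40.1 CPM in 2W-PSC and 50.4 ± 13.9 CPM in 3W-PSC, each step without overlap. Its log2 fold changes were -1.08 ± 0.22 for 2W-PSC over mono-PSC (adjusted p = 0.0398), -1.53 ± 0.25 for 3W-PSC over 2W-PSC (adjusted p = 0.00397) and -2.64 ± 0.19 for 3W-PSC over mono-PSC (adjusted p = 2.18e-08). The first of these was lost without any single mono-PSC library or without 2W-PSC replicate 1 or 4, with adjusted p from 0.0716 to 0.149, and with a minimum of 10 counts in all libraries, with 0.0543.

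In the conversion of retinol and retinal, *Rdh10*, the main dehydrogenase for the first oxidation, was at 10.1 ± 1.09 CPM in mono-PSC, 17.1 ± 3.46 CPM in 2W-PSC and 19.3 ± 2.45 CPM in 3W-PSC, and rose for 3W-PSC over mono-PSC (log2 fold change 0.93 ± 0.22, adjusted p = 0.00431). For 2W-PSC over mono-PSC its libraries did not overlap, but the adjusted p was 0.339. *Dhrs4*, a reductase of retinal like *Dhrs3*, did not follow the order of *Dhrs3*. It was at 40.7 ± 9.20, 33.6 ± 7.05 and 23.5 ± 7.49 CPM and fell for 3W-PSC over mono-PSC (-0.80 ± 0.24, adjusted p = 0.0194), a call that was lost with adjusted p from 0.0513 to 0.0622 when mono-PSC replicate 2 or 4 or 3W-PSC replicate 2 or 3 was left out. Among the 6 genes that the list files under reduction of retinal, *Dhrs4* was the only one that passed in any of the 3 comparisons. *Aldh1a7*, the neighbour of *Aldh1a1* on chromosome 19, had the same order of levels, 4.69 ± 1.08 CPM in mono-PSC, 1.70 ± 1.46 CPM in 2W-PSC and no count in any 3W-PSC library. Against a floor of 3 counts per library it was at least 12.4-fold lower in 3W-PSC than in mono-PSC (adjusted p = 1.5e-05).

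In delivery and degradation of retinoic acid, *Fabp5*, which carries retinoic acid to another class of nuclear receptor, was at 468 ± 108 CPM in mono-PSC, 381 ± 40.7 CPM in 2W-PSC and 145 ± 19.3 CPM in 3W-PSC. It fell for 3W-PSC over 2W-PSC (log2 fold change -1.40 ± 0.17, adjusted p = 0.0005) and over mono-PSC (-1.69 ± 0.18, adjusted p = 1.85e-06), in both without overlap, and the adjusted p for 2W-PSC over mono-PSC was 0.981. *Cyp26a1*, whose promoter holds the second DR5 printed above, had 1 count in the 12 libraries together, in 3W-PSC replicate 3, and *Cyp26c1* had none. *Cyp26b1* was thus the only one of the 3 enzymes of this family with more than 1 count.

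Of the nuclear receptors, *Rarg* was counted at far higher levels than *Rarb* in all cultures and *Rara* at higher levels than *Rarb* in mono-PSC. The levels and shares of *Rarb* carry the limit given above for the exonic bases it shares with *Top2b*, through which they may be too high or too low. *Rarg* was at 101 ± 17.7 CPM in mono-PSC, 170.4 ± 69.8 CPM in 2W-PSC and 145 ± 30.8 CPM in 3W-PSC. Its change for 3W-PSC over mono-PSC just passed (log2 fold change 0.52 ± 0.18, adjusted p = 0.041), with overlapping libraries, and was lost without mono-PSC replicate 2 or 3 or 3W-PSC replicate 3 or 4, with adjusted p from 0.0927 to 0.141, and in a fit of all 12 libraries, with 0.167. *Rara* was at 13.9 ± 2.76, 14.5 ± 2.97 and 18.1 ± 8.20 CPM, *Rxra* at 21.5 ± 3.85, 22.7 ± 9.20 and 20.8 ± 3.11 CPM, and *Rxrb* at 35.3 ± 6.21, 36.9 ± 9.40 and 40.0 ± 5.25 CPM, and none of the 3 passed in any comparison, with adjusted p from 0.349 to 0.999. *Rarb* made up 1.28% ± 1.26 of the summed CPM of the 3 retinoic acid receptors in mono-PSC, 7.33% ± 3.49 in 2W-PSC and 5.53% ± 1.24 in 3W-PSC, and *Rarg* at least 79.7% in every library. Among the 6 cofactors of these receptors, *Ncoa1*, a coactivator, rose for 3W-PSC over 2W-PSC (0.85 ± 0.22, adjusted p = 0.0316) and had 18.5 ± 8.19, 11.9 ± 2.71 and 21.6 ± 1.04 CPM in mono-PSC, 2W-PSC and 3W-PSC. This call was lost without 2W-PSC replicate 4 or any single 3W-PSC library, with adjusted p from 0.0651 to 0.0924, and in a fit of all 12 libraries, with 0.0623. Of its exonic bases, 68 also belong to a gene of the other strand.

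Of the 16 genes listed as known targets of retinoic acid, 9 were tested in each comparison. In edgeR none passed for 2W-PSC against mono-PSC, where 8 of 9 had a level above that of mono-PSC, 5 had an unadjusted p under 0.05 and DESeq2 called 2. Of all genes tested there in edgeR, 52.7% had a higher level, 7.4% an unadjusted p under 0.05 and 0.991% an adjusted p under it. These shares do not serve as a background for the DESeq2 calls, since DESeq2 called more of all genes than edgeR, as given in the last section. None passed in edgeR for 3W-PSC against 2W-PSC either, where all 9 were lower, 2 had an unadjusted p under 0.05 and DESeq2 called 1. Of all genes in edgeR, 49.8% were lower, 26.3% had such an unadjusted p and 10.7% passed, and DESeq2 again called more. In edgeR 4 passed for 3W-PSC against mono-PSC, *Hoxa5*, *Nr2f1* and *Tgm2* higher and *Meis2* lower, where 26.4% of all genes did. *Nr2f1*, a nuclear receptor without a known hormone, was at 19.6 ± 8.09, 41.3 ± 8.47 and 40.1 ± 4.87 CPM, with log2 fold changes over mono-PSC of 1.10 ± 0.30 in 2W-PSC (adjusted p = 0.143) and 1.03 ± 0.24 in 3W-PSC (adjusted p = 0.00445). Its level was thus above mono-PSC in every library of both co-cultures, as that of *Rarb* was. The same held for *Tgm2* and *Hoxb4* among the listed targets tested, while *Meis2* was below mono-PSC in every co-culture library. The epithelial marker sums were high in the same co-culture libraries, and their part was not tested. Of the exonic bases of *Nr2f1*, 123 also belong to a gene of the other strand.

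**Figure D5:**
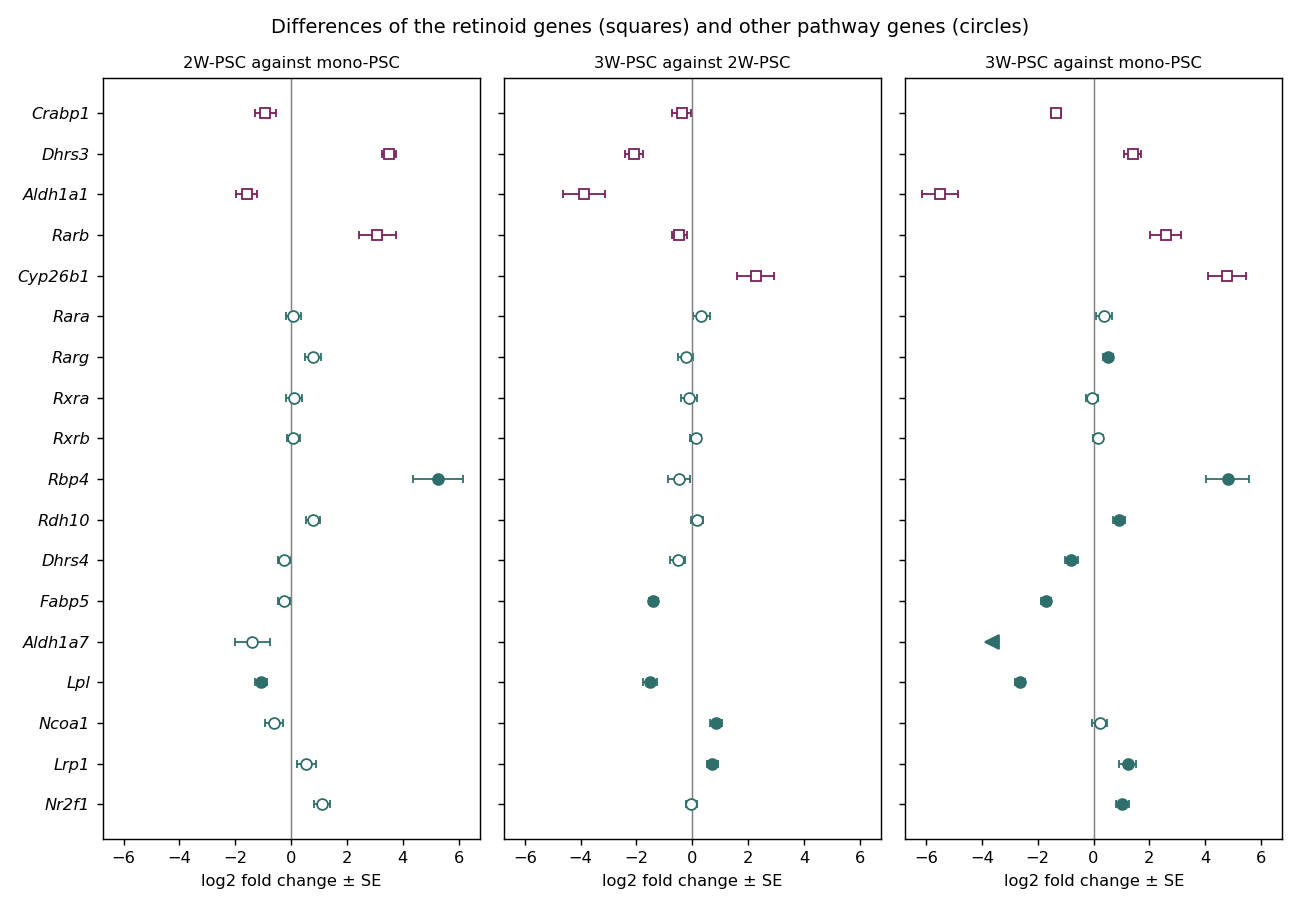
Log2 fold change with its standard error (horizontal axis) of the retinoid genes with enough counts (squares, drawn without a call) and of other named pathway genes (circles, filled where the adjusted p was under 0.05) in the 3 comparisons of cultures. The triangle is the bound for Aldh1a7, which had no count in 3W-PSC. Dhrs3 lies at 3.51 in the first comparison and at -2.09 in the second, and Lpl lies below 0 in all 3.

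For the 5 retinoid genes with enough counts, the genes whose log2 CPM ran most closely with theirs over the 12 libraries were looked up among all genes kept by the filter. These are descriptions over 12 points that share libraries and fall into 3 cultures, and a difference between cultures alone gives a high value. For *Dhrs3* they were *Megf10* (Pearson r = 0.936), *Id2* (0.925) and *Ermp1* (0.925). For *Rarb* they were *Fzd7* (0.930), *Rbp4* (0.926) and *Arhgap6* (0.923), so that the retinol carrier stood next to the receptor in its pattern. For *Aldh1a1* they were *Cldn1* (0.970), *Meis2* (0.969) and *Lpl* (0.968), of which the last 2 are pathway genes described above. For *Crabp1* they were *Cltb* (0.961), *Cnppd1* (0.929) and *Dusp3* (0.922), and for *Cyp26b1* *Gda* (0.944), *Ccl8* (0.937) and *Gfpt2* (0.936). No gene was named for more than 1 of the 5.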

How the data were processed

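RNA of sorted PSCs was measured in 12 libraries, 4 per culture, grouped by their labels. The authors prepared QuantSeq 3′ libraries, trimmed the reads, aligned them to the GRCm38 genome with STAR and used featureCounts to assign them to genes, and the deposited values are whole-number counts per gene, not normalised. Molecular identifiers are not named, so PCR copies count as reads. All libraries came from 1 clonal PSC line, and whether those of a culture came from separate preparations of it is not given in the sources used here, so p-values measure only the spread between these libraries.

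Totals were 4561817 to 8093368 counts. Counts were scaled by TMM, filtered with filterByExpr and compared in pairs of cultures (8 libraries per fit) with edgeR 4.0.16 (glmQLFit, glmQLFTest) under R 4.3.3, with Benjamini-Hochberg adjustment over all genes tested and a threshold of 0.05. Fold changes use a prior count of 0.125, and log2 CPM for likeness a prior count of 2. On simulated counts for 2W-PSC against mono-PSC (11199 genes), 86% of 4-fold and 24% of 2-fold changes were called, with 7.56% of calls false.

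The 9 genes and the pathway and marker lists were chosen with earlier results of these data known. Named pathway genes were the nuclear receptors and 9 others fixed by name, and in each comparison the called genes with the 3 largest changes in each direction. *Hoxa5*, *Tgm2*, *Meis2* and *Hoxb4* were named after their values were seen, to complete a count or a comparison. *Rbpr2* was not matched in the table, and 1 gene named by the rule is not reported here. Positions are from GENCODE release 21 for mouse (GRCm38), and promoters from RefSeq (GRCm38.p6). Alternatives were DESeq2's size factors, no filter, at least 10 counts in every library, a single fit of all 12 libraries, a block for the replicate number, DESeq2 1.42.0 and each library left out.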

Additional observations from a re-analysis of the deposited data

Results flagged for a closer look

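In each culture the highest or lowest of the 4 libraries was set against the others, for the 9 retinoid genes and the named pathway genes, by the gap to its nearest neighbour over the whole range (Dixon's 95% critical value). This was done in 69 groups of 4 libraries and marked 7, and chance marks about 1 in 20 groups where values are spread normally. That rate does not hold for sparse counts, since a group with counts in only 1 library is always marked. One concerned an abundant gene: *Crabp1* was at 259 CPM in 2W-PSC replicate 2, whereas the other three 2W-PSC libraries were at 79.8 to 93.6 CPM, and this is the library that stands apart across all genes. *Cyp26b1* was at 1.39 CPM (7 counts) in mono-PSC replicate 2, with the others at 0 to 0.174 CPM. The other marked values rest on 1 to 4 counts in a culture otherwise at 0. They are *Crabp2* in mono-PSC replicate 1 (0.348 CPM), *Aldh1a2* in mono-PSC replicate 4 (0.241 CPM) and in 2W-PSC replicate 4 (0.320 CPM), *Rbp4* in mono-PSC replicate 1 (0.697 CPM) and *Cyp26a1* in 3W-PSC replicate 3 (0.127 CPM).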

How the results depend on the processing

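Of the 9 retinoid genes, 1, 2 and 5 passed the threshold for 2W-PSC against mono-PSC, 3W-PSC against 2W-PSC and 3W-PSC against mono-PSC, and 2, 5 and 15 other pathway genes did. For 2W-PSC against mono-PSC, the retinoid genes that passed numbered 2 with DESeq2's size factors, with no filter, with 12 libraries in one fit and with the replicate block, and 3 with DESeq2, and the pathway genes 0 under a minimum of 10 counts in all libraries and 4 with 12 libraries in one fit or DESeq2. For 3W-PSC against 2W-PSC, the retinoid genes numbered 4 with no filter or DESeq2 and 1 with at least 10 counts, and the pathway genes 8 with DESeq2 and 2 with the replicate block. For 3W-PSC against mono-PSC, 2 of 2 retinoid genes left by a minimum of 10 counts passed. Leaving out single libraries gave 1 to 3, 2 to 3 and 5 to 5 retinoid genes and 0 to 4, 2 to 10 and 12 to 19 pathway genes. Over all genes, 111, 1230 and 3054 passed. For the first comparison this was 177 with no filter, 57 with at least 10 counts, 262 with 12 libraries in one fit, 277 with DESeq2 and 61 to 233 without single libraries. For the second it was 1788 with DESeq2 and 497 to 2107 without single libraries, highest without 2W-PSC replicate 2, and for the third 2228 to 4266.

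The 10 small differences that turned direction did so when 1 library was left out, and none of them passed the threshold with all libraries. For 2W-PSC over mono-PSC the log2 fold change ranged from -0.0485 to 0.16 for *Rara*, from -0.21 to 0.27 for *Rxra* and from -0.11 to 0.21 for *Rxrb*. For 3W-PSC over 2W-PSC it ranged from -0.57 to 0.19 for *Crabp1*, from -0.0377 to 0.49 for *Rara*, from -0.40 to 0.0669 for *Rarg*, from -0.30 to 0.17 for *Rxra*, from -0.00308 to 0.29 for *Rxrb* and from -0.15 to 0.0377 for *Nr2f1*. For 3W-PSC over mono-PSC it ranged from -0.16 to 0.0226 for *Rxra*. With the replicate block, *Lrp1* and *Ncoa1* were no longer called for 3W-PSC over 2W-PSC (adjusted p = 0.0729 and 0.0737) and 752 of all genes were. For 2W-PSC over mono-PSC the block gave 135 of all genes, 2 retinoid genes and 2 pathway genes. The replicate numbers were not taken to pair the libraries, since not every pair correlated above 0.1 in the deviations from the culture mean. For 2W-PSC and mono-PSC 3 of 4 pairs did and the other nearly so (0.099 to 0.338). The values were -0.0476 to 0.155 for 3W-PSC and 2W-PSC and 0.00263 to 0.107 for 3W-PSC and mono-PSC. Whether libraries of the same number were prepared together is not given in the sources used here. The causes of these shifts were not tested. With 4 libraries per culture, most simulated 2-fold changes between 2W-PSC and mono-PSC were missed, so a gene that did not pass is not shown to be unchanged, and genes with a few counts per library cannot be compared.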
